A study of Mus musculus with 36 samples.

Results

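Kidney tumors of mice that express the ASPSCR1-TFE3 gene fusion were compared to kidneys of control mice. The tumors were 11 libraries from 6 mice of the genotype Sglt2-Cre; ASPSCR1-TFE3 LSL/+, and the controls were 6 kidney libraries from 3 mice with Sglt2-Cre alone, so that both groups carried the Cre. These 17 libraries were taken from 36 in the series by the tissue and genotype in their labels, without use of any measured value. The Sglt2 promoter drives Cre in proximal tubule cells, and LSL denotes a stop cassette that Cre removes. The other libraries of the series, from tumors at other sites, from kidneys labelled normal of fusion mice, and from kidneys of mice with Pax8-Cre, were not used. Tissue was fixed in formalin and embedded in paraffin, and per the labels strand-specific libraries were made from total RNA with the ribosomal RNA left in. The labels give neither age nor sex, and libraries were assigned to a mouse by the number their titles share. Libraries of 1 mouse were summed, and all tests compare 6 tumor mice, called mouse 1 to mouse 6, to 3 control mice. The p-values therefore measure only the spread between these 9 mice.

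TFE3 belongs to the MiT/TFE family of transcription factors, with TFEB, TFEC and MITF. These factors bind short E-box elements near the start sites of genes for lysosomal enzymes, lysosomal membrane proteins and the vacuolar proton pump, and in pigment cells MITF drives the genes of the melanosome, an organelle related to the lysosome. At the lysosomal surface the Rag GTPases, together with folliculin, bring mTORC1 and the MiT/TFE factors under the control of amino acids. In translocation renal cell carcinoma a chromosomal rearrangement joins TFE3 to a partner such as ASPSCR1 and leaves the factor in the nucleus.

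Depth was alike in both groups, with 95205356 to 119317777 counts per tumor library and 106242404 to 120153158 per control library. Mouse 5 had a single library, with a total of 107476839 counts, while the other mice had 2 libraries each. Across genes, log2 levels of 2 tumor libraries of 1 mouse correlated at 0.927 to 0.982 (Pearson, 5 pairs), tumor libraries of different mice at 0.831 to 0.975 (50 pairs) and control libraries at 0.957 to 0.993. Some libraries stood apart from the rest. Y-linked transcripts placed mouse 1 and mouse 5 as male and the other 7 mice as female, so that all 3 controls were female. The library of mouse 5 held both Y-linked transcripts (297 CPM in sum) and 5.57 CPM of Xist, and the first library of mouse 4 held 34.3 CPM of the astrocyte transcript Gfap, against 0.0203 CPM in its second library. Y-linked transcripts were also present at lower levels in the second libraries of mouse 2 and control mouse 1, where Uty was at 4.16 and 1.24 CPM, against 0.616 and 0.0884 CPM in their first libraries and 90.8 CPM in mouse 5. Group counts were therefore also computed without the library of mouse 5 and the first library of mouse 4, hereafter the 2 doubted libraries.

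Of 23578 genes tested, 4474 (19.0%) were called at an edgeR adjusted p below 0.05. They comprised 2940 (12.5%) higher and 1534 (6.51%) lower in tumors. All 6 tumor mice lay on 1 side of all 3 controls for 7035 genes (29.8%), above them for 15.4% and below them for 14.4%. These shares are the background against which the gene groups are given. The median log2 fold change of all genes tested was 0.046. The number of calls rested on the few controls: it was 2084 without control mouse 1, 1163 without control mouse 2 and 1207 without control mouse 3. Without the library of mouse 5 and the first library of mouse 4, 6982 genes were called, 4061 higher and 2921 lower.

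**Figure D1:**
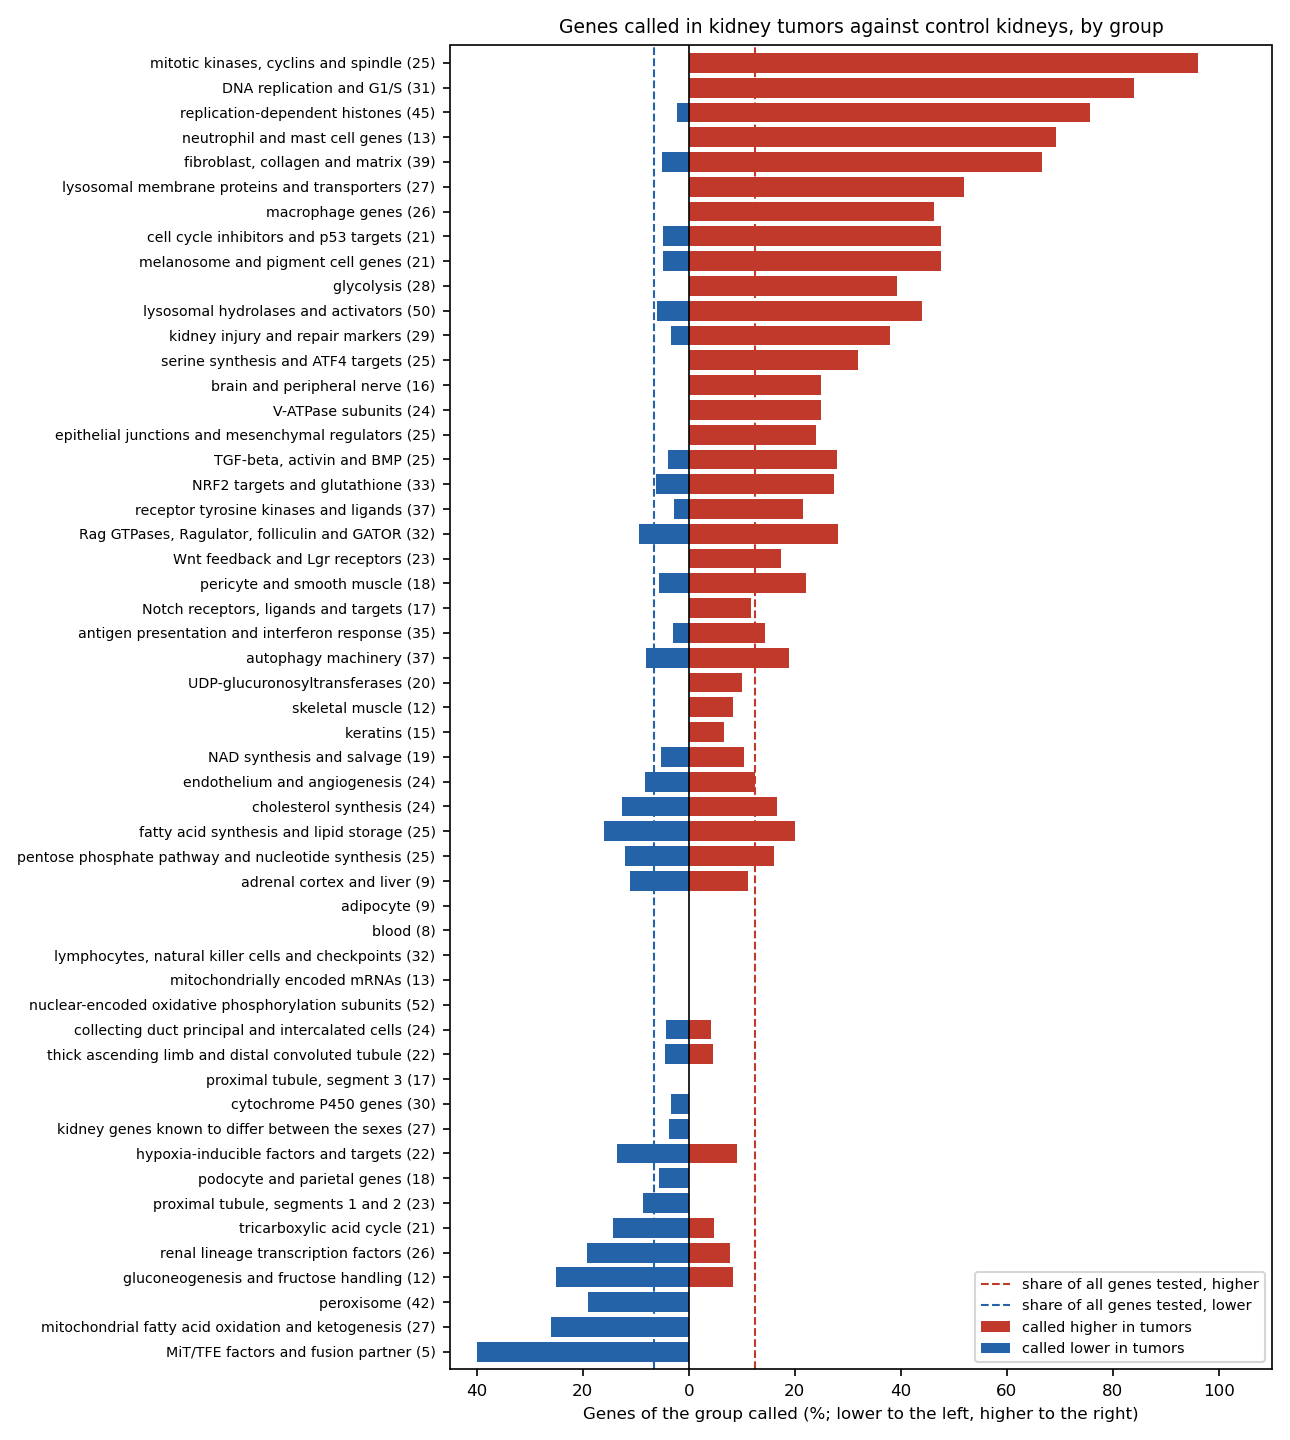
Share of the tested genes of each group called higher (right, red) or lower (left, blue) in kidney tumors, in percent, with the number of genes tested beside each name. Dashed lines mark the shares over all 23578 genes, 12.5% higher and 6.51% lower. The groups of mitosis, replication, histones, mast cells and neutrophils, and matrix extend furthest to the right.

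The E-box with flanking bases that MiT/TFE factors bind is TCACGTGA, which reads the same on both strands and contains the shorter element CACGTG. Promoter windows from RefSeq (build GRCm38.p6, 250 bases before to 50 after each start site) were found for 13709 of the 23574 tested symbols. TCACGTGA was present in 1.79% of these, in 3.06% of the genes called higher, in 1.59% of those called lower and in 1.56% of those not called. Among the tested members of 4 lysosome groups (hydrolases, membrane proteins, V-ATPase subunits, and Rag and folliculin genes) it was present in 11 of 105 windows (10.5%). It was in 6 of the 40 called higher (15.0%), in 5 of the 60 not called (8.33%) and in 0 of 5 called lower. The Rag and folliculin group held it in 0 of 28 windows. The shorter CACGTG was in 10.6% of all tested genes and in 25.7% of these lysosome genes. It was in 37.5% of the lysosome genes called higher and in 18.3% of those not called. As a comparison, TGACGTCA, a cyclic AMP response element, was in 3.08% of all tested genes, 2.92% of those called higher and 2.97% of those called lower. In the 4 lysosome groups it was in 2 of 105 windows (1.9%) and in 2 of the 40 called higher (5.0%). The 3 lysosome genes called higher with the largest changes and a TCACGTGA in the window were Gla, Ctsd and Igf2r, and their windows are printed 5′ to 3′ on the gene's strand, with TCACGTGA and CACGTG in capitals. The window of Gpnmb, which changed most among all lysosome genes, is printed beside them.
Gla, chrX:134600956-134601255, minus strand: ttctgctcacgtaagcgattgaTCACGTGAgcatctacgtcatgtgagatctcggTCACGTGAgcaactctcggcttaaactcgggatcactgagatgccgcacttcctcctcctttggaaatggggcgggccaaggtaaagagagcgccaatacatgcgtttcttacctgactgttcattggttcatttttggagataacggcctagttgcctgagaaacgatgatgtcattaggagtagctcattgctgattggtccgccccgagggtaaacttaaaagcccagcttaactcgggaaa
Ctsd, chr7:142387778-142388077, minus strand: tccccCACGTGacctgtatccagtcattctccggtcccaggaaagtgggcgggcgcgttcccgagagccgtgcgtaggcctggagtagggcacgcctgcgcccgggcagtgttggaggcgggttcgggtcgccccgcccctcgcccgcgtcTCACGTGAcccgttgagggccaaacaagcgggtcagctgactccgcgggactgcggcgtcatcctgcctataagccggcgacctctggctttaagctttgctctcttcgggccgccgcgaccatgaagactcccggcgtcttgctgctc
Igf2r, chr17:12769657-12769956, minus strand: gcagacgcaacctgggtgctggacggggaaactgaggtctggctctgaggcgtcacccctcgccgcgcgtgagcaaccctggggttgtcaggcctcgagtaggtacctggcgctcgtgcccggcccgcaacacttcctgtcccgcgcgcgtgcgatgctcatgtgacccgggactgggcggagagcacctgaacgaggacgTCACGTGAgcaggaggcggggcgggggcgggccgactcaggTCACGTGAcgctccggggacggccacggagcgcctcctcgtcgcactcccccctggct
Gpnmb, chr6:49036268-49036567, plus strand: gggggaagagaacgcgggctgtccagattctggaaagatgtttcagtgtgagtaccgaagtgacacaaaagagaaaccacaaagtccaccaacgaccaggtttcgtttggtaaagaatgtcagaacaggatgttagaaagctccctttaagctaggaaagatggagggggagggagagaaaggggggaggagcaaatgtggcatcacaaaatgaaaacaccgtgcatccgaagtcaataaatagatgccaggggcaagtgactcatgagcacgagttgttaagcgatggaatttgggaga
A match to these letters is a description and does not show that a factor was bound. In Gla the CACGTG cores of the 2 elements begin 227 and 194 bases before the start site, and in Igf2r 48 and 7 bases before it. Ctsd holds 1 full element 98 bases before the start site and 1 bare CACGTG 245 bases before it. The Gpnmb window holds neither element, which says only that these letters are not in these 300 bases.

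Genes for lysosomal enzymes were higher in tumors. Of 50 hydrolases and activators tested, 22 (44.0%) were called higher and 3 (6.0%) lower, beside 12.5% and 6.51% of all genes tested, with a median log2 fold change of 0.86. Gla (ENSMUSG00000031266.6, chromosome X, 134588149 to 134601125), the alpha-galactosidase that is deficient in Fabry disease, was at 108, 202 and 306 CPM in the lowest, median and highest tumor mouse and at 5.83, 6.17 and 5.3 CPM in the controls, a change of 5.15 ± 0.51 (SE) on the log2 scale (adjusted p 0.000386, edgeR). Every tumor mouse lay far above every control. The proteases cathepsin L and cathepsin D were abundant. Ctsl (ENSMUSG00000021477.9, chromosome 13, 64359337 to 64370890) was at 957 to 2169.9 CPM with a median of 1594 in tumors and at 150.3, 191 and 163 CPM in controls, a change of 3.25 ± 0.32 (SE) on the log2 scale (adjusted p 0.000353, edgeR). For Ctsd (ENSMUSG00000007891.16, chromosome 7, 142375911 to 142388038) the values were 435 to 1023 CPM with a median of 708 against 94.5, 100.3 and 96.6 CPM, a change of 2.86 ± 0.35 (SE) on the log2 scale (adjusted p 0.00109, edgeR). For both proteases the tumor mice and the controls were far apart. Hgsnat, an acetyltransferase of heparan sulfate breakdown, had a log2 fold change of 3.74, Hyal1, a hyaluronidase, of 3.64, Hexa, the hexosaminidase alpha subunit, of 2.28, and Ctsb of 1.97. Psap, the precursor of the saposins, was among the called genes with the largest gain in CPM, at 1116 to 2679 CPM with a median of 1963 in tumors and 599.8, 664 and 654 CPM in controls (log2 fold change 1.61, edgeR adjusted p 0.00871). The 3 enzyme genes called lower were Gm2a, an activator of ganglioside breakdown (-1.40), Ctsf (-1.18) and Ids (-0.57). The remaining 25 were not called, among them Tpp1, at 89 to 241 CPM with a median of 136 in tumors and 67.2 to 87.7 CPM in controls (edgeR adjusted p 0.0641). The called members numbered 32 without the 2 doubted libraries, and 13, 12 and 10 without control mouse 1, 2 or 3.

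Lysosomal membrane proteins and transporters showed the same direction, with 14 of 27 called higher, 0 called lower and a median log2 fold change of 1.12. Gpnmb (ENSMUSG00000029816.10, chromosome 6, 49036546 to 49070929) encodes a glycoprotein of lysosomes and melanosomes. It was at 2704, 4735 and 6919 CPM in the lowest, median and highest tumor mouse and at 2.35, 2.23 and 1.49 CPM in the controls, a change of 11.21 ± 0.55 (SE) on the log2 scale (adjusted p 8.5e-05, edgeR). It also had the largest gain in CPM of all genes called. The endosomal receptor gene Igf2r, which carries hydrolases to the lysosome, was at 562 to 1968 CPM with a median of 1140.0 in tumors and 169, 233 and 192 CPM in controls, a change of 2.53 ± 0.41 (SE) on the log2 scale (adjusted p 0.00489, edgeR). Npc1, the lysosomal cholesterol transporter, had a log2 fold change of 2.11, the cysteine transporter Mfsd12 of 2.86, the chloride exchanger Clcn7 and its partner Ostm1 of 1.65 and 2.10, the calcium channel Mcoln1 of 1.49, and Slc38a9, an arginine sensor upstream of the Rag GTPases, of 0.63. Lamp1 had a log2 fold change of 0.90 (edgeR adjusted p 0.0196), and all 6 tumor mice, at 1011 to 1900.0 CPM, lay above the controls at 783 to 828 CPM. Its relative Lamp2 was not called, at 390.1 to 579.5 CPM with a median of 496 in tumors and 470.3, 418 and 385 CPM in controls, where the groups overlapped. Cd68, a further glycoprotein of this group that also marks macrophages, had a log2 fold change of 3.98. Of 24 subunits of the V-ATPase, the proton pump that acidifies the lysosome, 6 were called higher and 0 lower, at a median of 0.55. Atp6v0a1, a membrane subunit, was at 269.8 to 831 CPM with a median of 611 in tumors and 107, 118 and 115 CPM in controls, a change of 2.35 ± 0.40 (SE) on the log2 scale (adjusted p 0.00614, edgeR). The other 5 were Atp6v1g1 (1.72), Atp6v0c (1.61), Atp6v0d1 (1.39), Atp6v1c1 (1.28) and Tcirg1 (0.98), and only Tcirg1 overlapped between the groups. Without the 2 doubted libraries 20 membrane protein genes were called, all higher, while 11 V-ATPase genes were called higher and 4 lower. The counts were 7, 6 and 5 for membrane proteins and 1, 2 and 1 for the V-ATPase without control mouse 1, 2 or 3, and the V-ATPase count was 11 without mouse 5. With sex as a covariate, and among female mice only, 15 V-ATPase genes were called higher and 0 lower.

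Of the 4 Rag GTPase genes, 3 were called higher. Rragb (ENSMUSG00000041658.12, chromosome X, 153139981 to 153171943), which encodes RagB, was at 130.0 to 336 CPM with a median of 205 in tumors and 5.85, 6.67 and 6.75 CPM in controls, a change of 5.04 ± 0.39 (SE) on the log2 scale (adjusted p 0.000166, edgeR). Rragc was at 209.8 to 596 CPM with a median of 402 against 124, 121 and 122 CPM, with a log2 fold change of 1.75 (edgeR adjusted p 0.0075), and Rragd at 54.7 to 237 CPM with a median of 143 against 38.4, 51.9 and 53.9 CPM, with a log2 fold change of 1.64. Rraga was not called, at 64.6 to 87.5 CPM with a median of 71.8 against 65.1, 65.5 and 65.3 CPM (edgeR adjusted p 0.279). Folliculin (Flcn, 1.21) and both its binding partners, Fnip1 (1.41) and Fnip2 (2.29), were called higher, as were the Ragulator scaffold genes Lamtor1 and Lamtor3 (1.24 and 1.06) and Tsc1, a brake on mTORC1 (1.76). Nprl2, a GATOR1 subunit, Castor2, an arginine sensor relative, and Deptor, an mTOR inhibitor, were called lower (-0.66, -1.18 and -1.61). In all, 9 of 32 genes of this group were called higher and 3 lower, at a median of 0.12, and the called number was 12 without the 2 doubted libraries and 7, 5 and 5 without control mouse 1, 2 or 3. Of 37 autophagy genes 7 were called higher and 3 lower, at a median of 0.09. Optn, an autophagy receptor, had the largest change (4.04, 115 to 405 CPM with a median of 279.6 in tumors and 15.3, 18.1 and 16.7 CPM in controls), followed by Atg7 (2.12), and the receptor Sqstm1 was higher too (1.66). Tax1bp1, Wipi2 and Nbr1 were called lower (-0.39, -0.50 and -0.57), and without control mouse 1, 2 or 3 the called number was 5, 3 and 2.

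Of 21 pigment cell genes tested, 10 were called higher and 1 lower, with a median of 1.69. Trpm1 (ENSMUSG00000030523.18, chromosome 7, 64153835 to 64269775), a cation channel of melanocytes and retina, was at 143, 274 and 487 CPM in the lowest, median and highest tumor mouse and at 0.453, 0.127 and 0.368 CPM in controls, a change of 9.89 ± 0.82 (SE) on the log2 scale (adjusted p 0.000211, edgeR). The melanosome receptor Gpr143 was at 14.9 to 117 CPM with a median of 67.2 against 0.215, 0.314 and 0.116 CPM, a change of 8.24 ± 0.99 (SE) on the log2 scale (adjusted p 0.00101, edgeR). Pmel, which forms the fibrils of the melanosome, ranged widely between tumor mice. It was at 229 and 268 CPM in mouse 2 and mouse 5 and at 12.2 and 3.19 CPM in mouse 3 and mouse 6, with 0.556, 0.358 and 0.471 CPM in controls, a change of 7.78 ± 1.67 (SE) on the log2 scale (adjusted p 0.0147, edgeR). Even the lowest tumor mouse lay above all controls. Mreg, a melanosome transport gene, had a log2 fold change of 4.85, and Rab27a of 1.69. Myo5a, the motor that carries melanosomes and other vesicles, is not among these 21 genes. It gained more CPM than any other called gene except Gpnmb, at 2116 to 5225 CPM with a median of 4316 in tumors and 179.8, 168 and 179 CPM in controls (log2 fold change 4.53, edgeR adjusted p 0.000166). Other members of the group were called at low levels. Tyrp1, a melanin enzyme, was at 22.8 CPM in mouse 6, at 0.379 to 2.68 CPM in the other tumor mice, and at 2 counts in all over the controls. Mlana, Oca2 and Mc1r stayed below 1 CPM in every mouse. The melanocyte genes Dct, Sox10, Slc45a2 and Slc24a5 were not called, and Tyr did not pass the filter on low counts. The count of called genes was 5, 4 and 4 without control mouse 1, 2 or 3.

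None of the MiT/TFE genes was called higher, and Mitf and Tfec were called lower. Mitf (ENSMUSG00000035158.15, chromosome 6, 97807052 to 98021349) was at 12.9 to 24.7 CPM with a median of 17.2 in tumors and 31.1, 37.9 and 41.7 CPM in controls, a change of -1.05 ± 0.22 (SE) on the log2 scale (adjusted p 0.0137, edgeR), and Tfec at 3.23 to 17.5 CPM with a median of 11.1 against 28.3, 33 and 31.3 CPM, a change of -1.49 ± 0.40 (SE) on the log2 scale (adjusted p 0.0317, edgeR). Tfeb was at 5.93 to 10.6 CPM with a median of 8.67 against 10.3, 15.2 and 15.5 CPM and was not called (edgeR adjusted p 0.0707). Tfe3 and Aspscr1 were not called, and the counts do not show how many of their reads came from the fusion transcript. The called number of these 5 genes was 1 without control mouse 1, 0 without control mouse 2 or 3, and 1 without mouse 3.

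**Figure D2:**
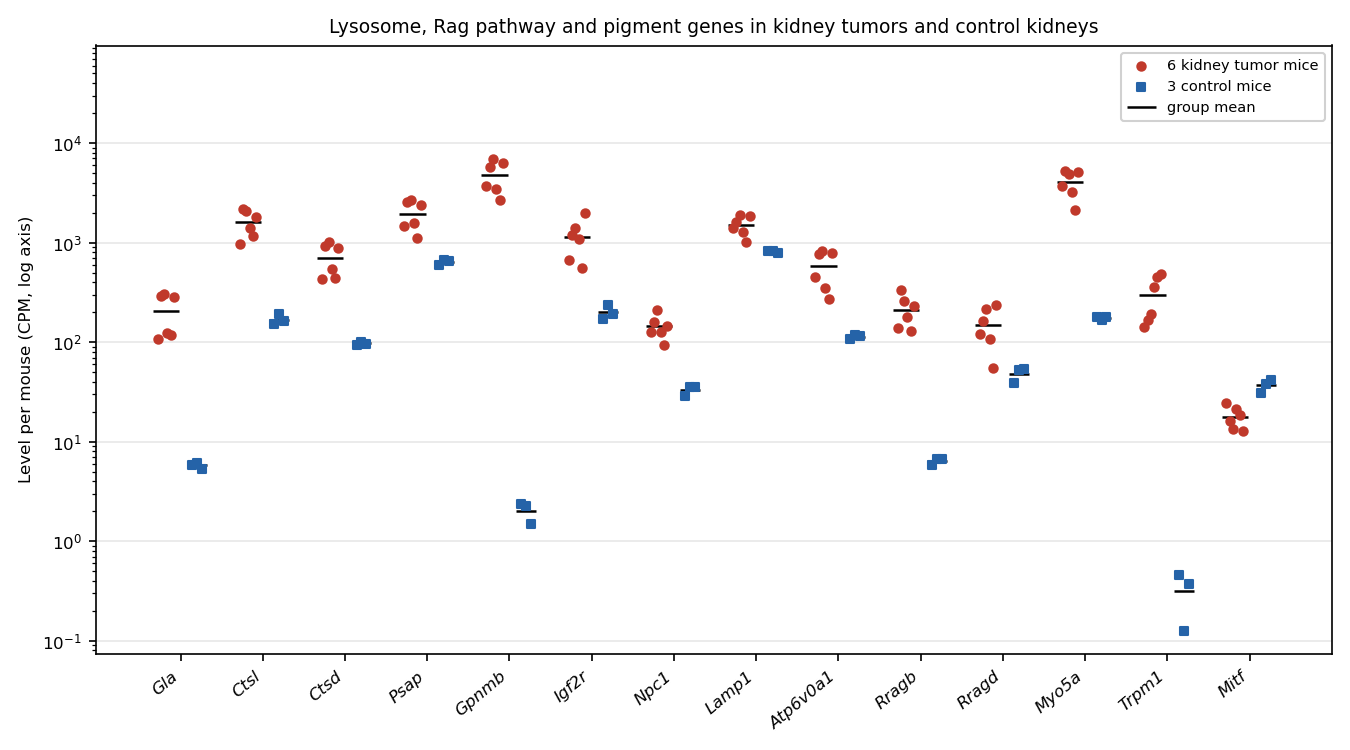
Level of 14 lysosome, pigment and Rag pathway genes in each mouse, as CPM on a log axis. Red points are the 6 kidney tumor mice, blue points the 3 control mice, and a bar marks each group's mean. For Gpnmb the tumor mice lie between 2704 and 6919 CPM and the controls between 1.49 and 2.35, while the groups lie much closer for Lamp1, and for Mitf the tumor mice lie below the controls.

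Most genes of cell division were higher in tumors. Of 25 mitotic genes, 24 were called higher and 0 lower, with a median log2 fold change of 2.78. All 25 did not overlap between the groups, beside 29.8% of all genes tested. Mki67 (ENSMUSG00000031004.8, chromosome 7, 135689784 to 135716361), the antigen by which dividing cells are counted, was at 205, 269.6 and 343 CPM in the lowest, median and highest tumor mouse and at 33.8, 35.1 and 50 CPM in controls, a change of 2.77 ± 0.23 (SE) on the log2 scale (adjusted p 0.000211, edgeR). Top2a, the DNA topoisomerase of dividing cells, was at 73.7 to 106 CPM with a median of 87.7 against 9.13, 8.3 and 12.2 CPM, a change of 3.14 ± 0.20 (SE) on the log2 scale (adjusted p 0.000112, edgeR). The cyclin-dependent kinase Cdk1 was at 13.3 to 21.9 CPM with a median of 18.3 against 1.48, 1.34 and 1.39 CPM and its cyclin Ccnb1 at 13.9 to 21.8 CPM with a median of 16.5 against 1.34, 0.903 and 1.71 CPM. Both rose by 3.69 on the log2 scale. Cenpe, a kinetochore motor, Birc5 and the kinase Aurkb had log2 fold changes of 3.81, 3.58 and 3.38. Of 31 genes of DNA replication and the G1/S step, 26 were called higher and 0 lower, at a median of 1.62. E2f8 had a log2 fold change of 4.10, Rrm2, a subunit of ribonucleotide reductase, of 2.74, Ccne1 of 2.71, Cdt1 of 2.63, and the 6 helicase subunits Mcm2 to Mcm7 from 0.82 (Mcm7) to 2.19 (Mcm5). Cyclin D1 (Ccnd1) was at 97.2 to 264 CPM with a median of 229 in tumors and 43.2, 46.2 and 49.6 CPM in controls, a change of 2.09 ± 0.35 (SE) on the log2 scale (adjusted p 0.0057, edgeR). The motif CCAAT, the site of the NF-Y factor, was in 17 of 20 mitotic promoters (85.0%) and in 41.9% of all tested genes, searched on both strands.

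Replication-dependent histones were called higher in 34 of 45 and lower in 1, with a median of 2.01. Hist1h1b, a linker histone, was at 4.89 to 6.55 CPM with a median of 5.87 in tumors and 0.529, 0.305 and 0.421 CPM in controls, a change of 3.80 ± 0.27 (SE) on the log2 scale (adjusted p 0.000131, edgeR). Hist1h4c was the member called lower (-0.89). Histone genes are near-identical copies and how shared reads were counted is not known, so that single histone values are uncertain. The called number was 22 to 23 for mitosis, 19 to 23 for replication and 29 to 33 for histones when a control mouse was left out, and 24, 28 (27 higher and 1 lower) and 36 without the 2 doubted libraries. Inhibitors of the cell cycle were also higher. Cdkn2a (ENSMUSG00000044303.6, chromosome 4, 89274471 to 89294653), which encodes p16 and p19Arf, was at 1.27 to 6.71 CPM with a median of 3.4 in tumors and 0.0179, 0.00873 and 0.00826 CPM in controls, a change of 8.28 ± 0.89 (SE) on the log2 scale (adjusted p 0.0006, edgeR). The 3 control mice held 8 counts of Cdkn2a in all, so that the fitted fold change depends on how such small counts are handled. Cdkn1a, which encodes p21, was at 4.69 to 11.2 CPM with a median of 8.22 against 1.85, 2.4 and 1.71 CPM, a change of 2.01 ± 0.30 (SE) on the log2 scale (adjusted p 0.00302, edgeR). The p53 targets Phlda3, Eda2r and Bax had log2 fold changes of 4.16, 3.84 and 2.52. In this group 10 of 21 genes were called higher and 1, Btg2 (-0.99), lower, and the called number was 8, 6 and 7 without control mouse 1, 2 or 3.

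The genes that mark nephron segments were lower in most tumors but by very different amounts. Control kidneys expressed the defining markers of every segment, such as the proximal tubule phosphate transporter Slc34a1 at 811, 1209 and 1150.4 CPM, the thick ascending limb protein Umod at 1739.5, 1114 and 1328 CPM and the collecting duct water channel Aqp2 at 45.3, 50.5 and 43.3 CPM. In mouse 2, mouse 3 and mouse 6 these were nearly absent. There Slc34a1 was at 9.05, 10.4 and 6.17 CPM, Umod at 63.1, 25.8 and 4.82 CPM and Aqp2 at 1.69, 0.323 and 0.124 CPM. In mouse 4 and mouse 5 the levels approached or reached those of the controls, with Slc34a1 at 706 and 562 CPM, Umod at 941 and 1775 CPM and Aqp2 at 26.1 and 75.9 CPM. Mouse 1 lay between, and there the first library held 462 CPM of Umod and the second 8.88 CPM. Fewer cells of a type and less RNA per cell cannot be told apart in such tissue, and how much kidney tissue each tumor sample contained was not tested.

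Few markers passed the edgeR test on mice, and the number called depended strongly on the method. Of 23 genes of proximal tubule segments 1 and 2, 16 did not overlap between the groups, beside 29.8% of all genes tested. Among the 23, 0 were called higher and 2 lower, with a median log2 fold change of -2.03. The 2 were Dab2, an adaptor of protein uptake (-1.21), and the amino acid transporter Slc7a7 (-1.38). The uptake receptor Lrp2, megalin, was at 539.8, 543 and 544 CPM in the mice with the lowest levels and at 4304 and 4433 CPM in mouse 4 and mouse 5, against 6047 to 6265 CPM in controls, and was not called (edgeR adjusted p 0.136). Slc5a2, which encodes SGLT2, ranged from 0.514 to 154 CPM in tumors, against 196, 361 and 271 CPM, and was not called either (log2 fold change -2.55, SE 1.45). Segment 3 had 0 of 17 called by edgeR (median -1.91), with 4 at an unadjusted p below 0.05 and 2 called by DESeq2, while thick ascending limb and distal tubule had 1 of 22 called higher and 1 lower (-1.75), collecting duct 1 of 24 higher and 1 lower (-2.09), and podocytes 0 of 18 higher and 1, Npnt (-1.81), lower. At an SD of 2.29 on the log2 scale, the median gene of segments 1 and 2 varied far more between tumor mice than between controls (0.289), and more than the median mitotic gene did between tumor mice (0.252). The 2 libraries of 1 tumor mouse differed by a median of 0.632 for mitotic genes and by 0.967 for segments 1 and 2. These are absolute differences of single libraries and cannot be set directly against an SD between summed mice. By limma-voom on libraries, with mouse as a random block, 22 of 23 genes of segments 1 and 2 were called lower, 12 of 17 of segment 3, 17 of 22 of the thick ascending limb and distal tubule, 20 of 24 of the collecting duct and 9 of 18 of podocytes, and the medians were -3.29, -3.27, -4.25, -4.62 and -0.97. With each library as its own sample edgeR called 12, 9, 5, 8 and 6 of them lower. Without the 2 doubted libraries 9 of the segment 1 and 2 genes and 12 of the collecting duct genes were called lower, and without mouse 4 the numbers were 5 and 5. The median of the collecting duct was -3.38 without the 2 doubted libraries, and that of the thick ascending limb and distal tubule -2.58. Without any 1 control mouse 0 and 1 genes of these groups were called, the latter higher. Relative to the control mean, and on the log2 scale of CPM plus 0.5, the median gene of segments 1 and 2 lay at -5.30, -5.24 and -4.77 in mouse 6, mouse 3 and mouse 2, at -2.31 in mouse 1, and at -1.04 and -0.69 in mouse 5 and mouse 4. The lysosomal membrane genes ran the other way, at 1.22, 1.23 and 1.23 in mouse 6, mouse 3 and mouse 2 and at 0.32 and 0.51 in mouse 5 and mouse 4. The mitotic genes lay between 2.37 and 2.79 in all 6 mice.

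**Figure D3:**
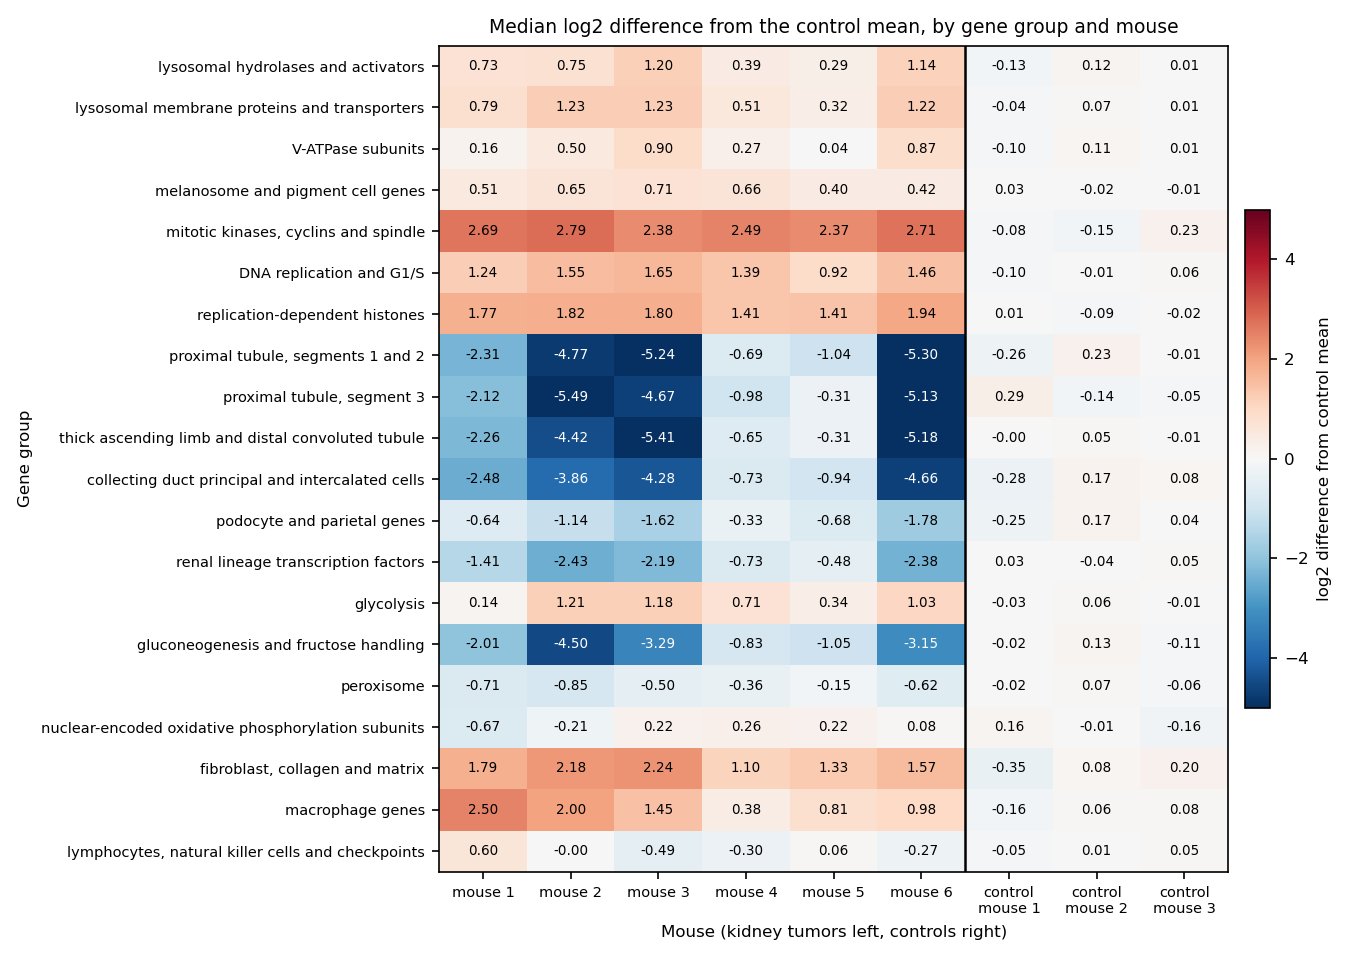
Median difference from the control mean, on the log2 scale of CPM plus 0.5, over the genes of 20 groups (rows) in each of the 9 mice (columns), on a color scale from blue (lower) to red (higher) cut at 5 on either side, with each value printed. Mitotic genes are higher by 2.37 to 2.79 in every tumor mouse, whereas the nephron segments are lowest in mice 2, 3 and 6 and closest to the controls in mice 4 and 5.

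The genes Aqp3 and Pvalb went against this pattern. Aqp3, a water and glycerol channel of collecting duct principal cells, was called higher, at 176 to 469 CPM with a median of 255 in tumors and 26.2, 28.2 and 29.9 CPM in controls, a change of 3.31 ± 0.35 (SE) on the log2 scale (adjusted p 0.000584, edgeR). No tumor mouse overlapped the controls, including the mice in which Aqp2 was below 2 CPM. Pvalb, a calcium-binding protein of the distal tubule that muscle also makes, was higher too (2.70), with mouse 1 inside the control range. Other nephron genes were called lower. Wnk1, a kinase that regulates salt transport, had the largest loss in mean CPM of the genes called, at 759 to 1525 CPM with a median of 868 against 1979, 1994 and 1988 CPM, a change of -1.02 ± 0.22 (SE) on the log2 scale (adjusted p 0.014, edgeR). Tfcp2l1, a collecting duct transcription factor, fell by 1.92 on the log2 scale.

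Among 26 renal lineage factors, 5 were called lower and 2 higher, at a median of -1.29. The lower ones included Lhx1 (-1.95), Ppara, the nuclear receptor for fatty acids (-1.87), Esrrg (-1.36) and Pax8 (-0.62). Ppara was at 14.9 to 36.7 CPM with a median of 18.1 in tumors and 72.9, 91.7 and 63.6 CPM in controls, a change of -1.87 ± 0.28 (SE) on the log2 scale (adjusted p 0.00302, edgeR). Hnf4a, the hepatocyte nuclear factor of the proximal tubule, followed the segment markers, at 10.4, 27.8 and 17.9 CPM in mouse 2, mouse 3 and mouse 6 and 135 and 177 CPM in mouse 4 and mouse 5, against a mean of 299 CPM in controls, where the groups did not overlap (edgeR adjusted p 0.0925). Eya1 (ENSMUSG00000025932.14, chromosome 1, 14168954 to 14310235), which acts in nephron progenitors, was called higher. It was at 2.82, 49.5 and 303 CPM in the lowest, median and highest tumor mouse and at 1.34, 1.37 and 1.51 CPM in controls, a change of 6.08 ± 1.43 (SE) on the log2 scale (adjusted p 0.0204, edgeR). The called number was 2, 1 and 1 without control mouse 1, 2 or 3, and 11 without mouse 5.

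Markers of injured and repairing tubules were called higher in 11 of 29 and lower in 1, at a median of 0.81. By limma-voom on libraries 10 were higher and 7 lower, at a median of 0.345. Sox9, a factor of regenerating tubules, was at 6.45 to 97.1 CPM with a median of 59.5 in tumors and 1.08, 1.28 and 0.909 CPM in controls, a change of 5.62 ± 1.02 (SE) on the log2 scale (adjusted p 0.00766, edgeR). Vcam1 was at 60.8 to 628 CPM with a median of 291 against 24.4, 27.4 and 31.6 CPM, a change of 3.49 ± 0.64 (SE) on the log2 scale (adjusted p 0.00796, edgeR). Timp1, Lcn2 and Spp1 were higher as well (6.18, 3.86 and 1.37), while Prom1 was lower (-1.84). Havcr1, the injury marker KIM-1, was not called and lay below the controls in all 6 tumor mice, at 0.468 to 32.2 CPM with a median of 3.39 against 57.1, 36.4 and 52 CPM (edgeR adjusted p 0.162). The called number was 6, 5 and 4 without control mouse 1, 2 or 3. The keratins Krt7, Krt8 and Krt18 were not called, and of 15 keratins 1, Krt20, was called higher (3.28) and 0 lower, while limma-voom called 5 of 13 lower and edgeR without the 2 doubted libraries 2. The summed keratin level was 10 to 124 CPM in tumors and 127 to 159 CPM in controls. Among 25 genes of epithelial junctions and mesenchymal cells 6 were called higher and 0 lower. E-cadherin (Cdh1) ranged from 2.99 to 147 CPM against 217 to 318 CPM and was not called, whereas Cdh2 (1.41), Vim (2.18), Snai2 (1.35), Zeb1 (0.56) and the tight junction gene Cldn4 (4.20) were called higher. Cldn4 was at 26.8 to 170.2 CPM with a median of 72.5 in tumors and 4.66, 4.43 and 4.58 CPM in controls.

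Glycolytic genes were called higher in 11 of 28 and lower in 0, with a median of 0.94. Hk2 (ENSMUSG00000000628.10, chromosome 6, 82725025 to 82774454), hexokinase 2, was at 643, 1705 and 2417 CPM in the lowest, median and highest tumor mouse and at 1.33, 1.13 and 1.46 CPM in controls, a change of 10.31 ± 0.68 (SE) on the log2 scale (adjusted p 0.000131, edgeR). Only Ivl, Ugt2b35, Gpnmb and Col10a1 rose more among the genes called with no overlap and an average log2 CPM of at least 5. Slc16a3, the lactate exporter MCT4, was at 6.38 to 55.4 CPM with a median of 19.8 against 0.26, 0.14 and 0.285 CPM, a change of 6.82 ± 0.91 (SE) on the log2 scale (adjusted p 0.00181, edgeR). Eno2, an enolase, had a log2 fold change of 5.23, Pfkfb3, which makes the activator of phosphofructokinase, of 3.75, Pfkp of 1.87, Pkm of 1.24 and Aldoa of 1.02. Gluconeogenesis ran in the opposite direction. All 12 of its genes separated the groups, 11 below and 1 above the controls, where 29.8% of all genes tested did so, 14.4% below. Their median was -2.03, though edgeR called only 3 lower (8 by DESeq2), Slc37a4 (-1.80), Tkfc (-2.06) and Pcx (-1.09). G6pc, the glucose-6-phosphatase, was at 3.46, 27.3 and 135 CPM in the lowest, median and highest tumor mouse and at 451, 562 and 461 CPM in controls (edgeR adjusted p 0.0628). The median gluconeogenic gene lay at -4.50, -3.29 and -3.15 in mice 2, 3 and 6 and at -0.83 and -1.05 in mice 4 and 5, and the proximal tubule markers of segments 1 and 2 were lowest in the same 3 mice. The part of fewer proximal tubule cells in this difference was not tested. The gene above the controls was Pck2, the mitochondrial carboxykinase (1.08), while cytosolic Pck1 was at 6.02 to 888 CPM against 1224 to 1629 CPM and was not called. The called numbers were 6, 5 and 5 of the glycolytic genes and 2, 0 and 0 of the gluconeogenic genes without control mouse 1, 2 or 3.

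**Figure D4:**
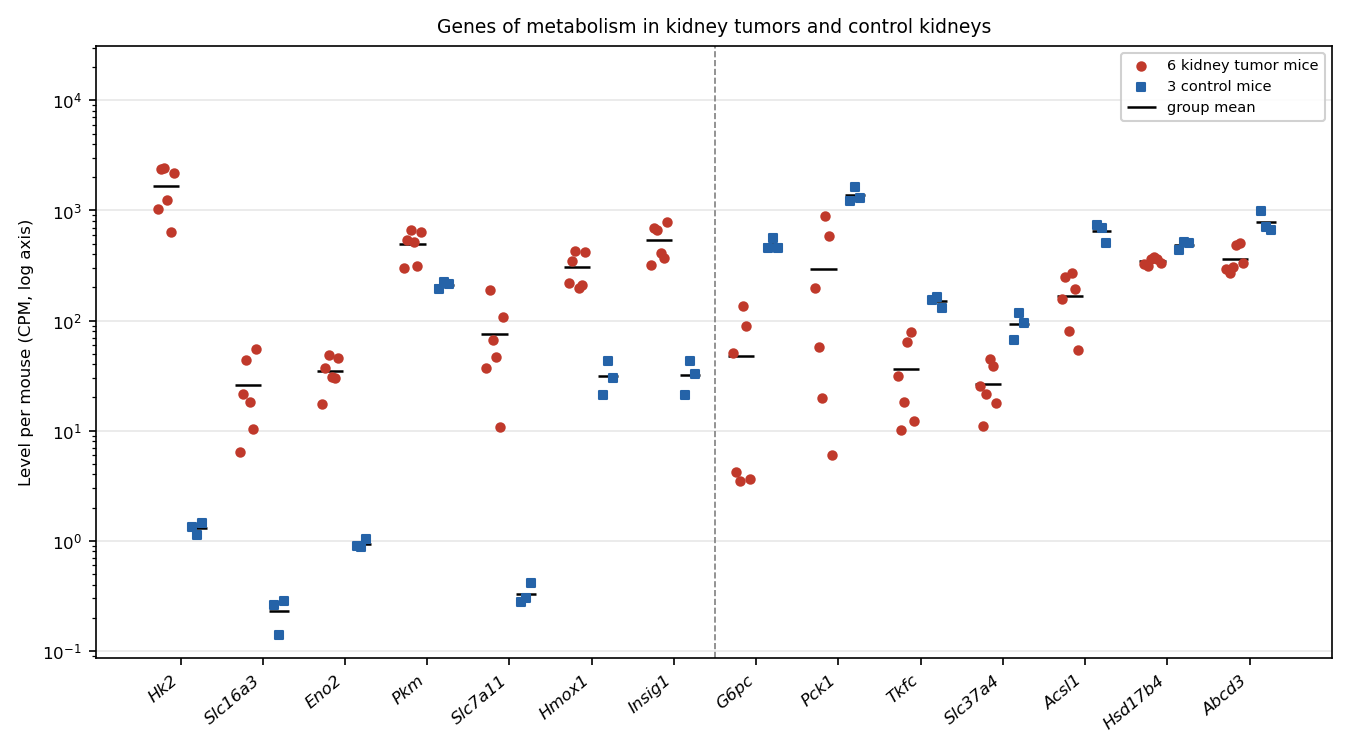
Level of 14 genes of metabolism in each mouse, as CPM on a log axis, with glycolysis and redox genes on the left and gluconeogenesis, fatty acid and peroxisome genes on the right. Red points are the 6 tumor mice, blue points the 3 controls and bars the group means. Hk2 lies between 643 and 2417 CPM in tumors and near 1 CPM in controls, and Acsl1 and Hsd17b4 lie below the controls in every tumor mouse.

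Of 27 mitochondrial genes of fatty acid oxidation and ketogenesis, 7 were called lower and 0 higher, at a median of -0.61. Acsl1 (ENSMUSG00000018796.13, chromosome 8, 46471037 to 46536051), an acyl-CoA synthetase, was at 53.9 to 273 CPM with a median of 174 in tumors and 736, 687 and 509.7 CPM in controls, a change of -1.94 ± 0.45 (SE) on the log2 scale (adjusted p 0.0192, edgeR). Carnitine shuttle genes changed less, with Cpt1a at -0.69, Slc25a20 at -0.71 and Cpt2 at -0.84 on the log2 scale. Of 42 peroxisomal genes, 8 were called lower and 0 higher, with a median of -0.53. They included the transporter Abcd3 (-1.10), Hsd17b4 (-0.49) and the biogenesis factors Pex11a and Pex26 (-0.90 and -0.77). Calls in both groups rested on single mice. Without mouse 5, 11 oxidation and 17 peroxisomal genes were called, without control mouse 1, 2 or 3 these were 2, 1 and 2 and 3, 0 and 1, and without mouse 3 or mouse 6 the peroxisomal number was 5 and 4. Oxidative phosphorylation stood apart from both. Of 52 nuclear-encoded subunits edgeR called 0, at a median of 0.005, with 4 at an unadjusted p below 0.05 and 2 called by DESeq2. Of the 13 mitochondrial mRNAs edgeR called 0, with 1 at an unadjusted p below 0.05 and 1 called by DESeq2. Without mouse 1, 7 subunits were called. The 2 mitochondrial ribosomal RNAs fell. For mt-Rnr1 the values were 65.5 to 201 CPM with a median of 124 in tumors and 438, 758 and 758 CPM in controls, a change of -2.43 ± 0.34 (SE) on the log2 scale (adjusted p 0.00219, edgeR), and for mt-Rnr2 61 to 247 CPM with a median of 126 against 442, 869 and 899.9 CPM, a change of -2.42 ± 0.41 (SE) on the log2 scale (adjusted p 0.00565, edgeR). Both lay far below the sum of the 13 mitochondrial mRNAs, which was 17216 to 29832 CPM in tumors and 14583 to 21613 CPM in controls, although the labels state that ribosomal RNA was not removed. A sum over 13 genes is not the level of 1 of them, and levels of single mitochondrial mRNAs are not given here. How ribosomal reads were treated before counting is not given in the sources used here. In the tricarboxylic acid cycle 1 of 21 genes, Pdhb (1.32), was called higher and 3 lower.

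Genes of lipid synthesis split, with 4 of 24 cholesterol genes called higher and 3 lower, and 5 of 25 fatty acid synthesis and storage genes higher and 4 lower. Insig1, a brake on cholesterol synthesis that is itself a sterol-regulated target, was at 317 to 784 CPM with a median of 538 in tumors and 21.1, 42.5 and 33 CPM in controls, a change of 4.07 ± 0.42 (SE) on the log2 scale (adjusted p 0.00048, edgeR). Sqle, Fdps and Sc5d were called higher (1.48, 2.42 and 1.15) but Hmgcs1, Ebp and Hsd17b7 lower (-1.99, -0.64 and -0.71). Acaca, which commits acetyl-CoA to fatty acid synthesis, was at 270.2 to 1263 CPM with a median of 891 against 102, 155 and 146 CPM, a change of 2.64 ± 0.54 (SE) on the log2 scale (adjusted p 0.0121, edgeR), and Fabp5 had a log2 fold change of 4.40, while Elovl6, Fads2, Dgat2 and the regulator Mlxipl were lower (-1.35, -0.90, -1.03 and -1.34). In the pentose phosphate and nucleotide group 4 of 25 were called higher and 3 lower, and the former included the oxidative enzymes Pgd (2.86) and G6pdx (1.88). Without control mouse 2 the called numbers in these groups were 1, 0 and 1.

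Of 33 NRF2 target and glutathione genes, 9 were called higher and 2 lower. Slc7a11 (ENSMUSG00000027737.10, chromosome 3, 49892526 to 50443614), the cystine importer, was at 10.7, 56.3 and 190.2 CPM in the lowest, median and highest tumor mouse and at 0.278, 0.301 and 0.409 CPM in controls, a change of 7.85 ± 1.06 (SE) on the log2 scale (adjusted p 0.00184, edgeR). Hmox1, heme oxygenase, was at 199 to 431 CPM with a median of 284 against 21.1, 43.1 and 29.8 CPM, a change of 3.28 ± 0.39 (SE) on the log2 scale (adjusted p 0.00097, edgeR), and Aox1, Akr1b8 and Cbr3 had log2 fold changes of 4.51, 3.97 and 3.50. Osgin1 and Cbr1 fell by 2.44 and 1.46. The iron storage gene Ftl1 was among the largest gains in CPM of the genes called, at 1269 to 3349 CPM with a median of 2479.6 in tumors and 1014, 931 and 824 CPM in controls (log2 fold change 1.35, edgeR adjusted p 0.0163). Of 25 serine synthesis and ATF4 target genes, 8 were called higher and 0 lower, among them Atf3 (4.39), Gdf15 (4.51), Atf5 (2.42), Asns (1.64) and Ddit3 (1.60). Without the 2 doubted libraries 20 NRF2 genes (14 higher and 6 lower) and 15 ATF4 genes (13 higher and 2 lower) were called, and without control mouse 2 these were 6 and 5. Of 19 NAD genes 2 were called higher and 1 lower. Nmrk2, a kinase of NAD salvage, was at 1.84 to 98.5 CPM in tumors and at 2 counts in all over the 3 controls. Of 22 hypoxia-inducible factors and targets, 2 (9.1%) were called higher and 3 (13.6%) lower, beside 12.5% and 6.51% of all genes tested. Their median was -0.17. Hif1a was at 560.2 to 1885 CPM with a median of 1361 against 292, 305 and 321 CPM, a change of 2.13 ± 0.36 (SE) on the log2 scale (adjusted p 0.00599, edgeR), Epas1, which encodes HIF-2 alpha, fell by 0.75, and Ndrg1 was at 87.5 to 544 CPM with a median of 270.2 against 1189.6, 1377 and 942 CPM, a fall of 1.98 on the log2 scale. The targets Vegfa and Car9 were not called, and without control mouse 1, 2 or 3 the called number was 1 in each case. Cytochrome P450 genes (0 of 30 higher, 1 lower) and glucuronosyltransferases (2 of 20 higher, 0 lower) varied widely between mice, with a median SD of 2.69 and 1.73 over tumor mice. DESeq2 called 2 of the former higher and 4 lower, and 7 of the latter higher and 2 lower, while limma-voom called 17 P450 genes lower, and 4 glucuronosyltransferases higher and 5 lower. Ugt2b35 was at 23.1 to 785 CPM with a median of 327 in tumors and 0.108, 0.0698 and 0.0248 CPM in controls, a change of 12.38 ± 1.72 (SE) on the log2 scale (adjusted p 0.00217, edgeR), but reads shared within the Ugt family make its value uncertain.

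Matrix genes were called higher in 26 of 39 and lower in 2, with a median of 1.97. Col1a1 (ENSMUSG00000001506.10, chromosome 11, 94936224 to 94953042) was at 205 to 719 CPM with a median of 457 in tumors and 27.5, 35.6 and 64.5 CPM in controls, a change of 3.46 ± 0.55 (SE) on the log2 scale (adjusted p 0.00436, edgeR), and Col3a1 and Fn1 had log2 fold changes of 2.66 and 2.65. The basement membrane chains Col4a1 and Col4a2 were higher (1.86 and 1.82), whereas Col4a3, Col4a4 and Col4a5 of the mature glomerular and tubular membrane were not called. Col10a1 (ENSMUSG00000039462.4, chromosome 10, 34389981 to 34397085), a collagen of growth plate cartilage, was at 20.5, 57.8 and 147 CPM in the lowest, median and highest tumor mouse and at 0.0359, 0.0349 and 0.0289 CPM in controls, a change of 11.02 ± 1.0 (SE) on the log2 scale (adjusted p 0.00026, edgeR). The control levels rest on 23 counts in all. Timp3 and Mmp13 were the members called lower (-1.21 and -1.04). Dcn, Lum and Pdgfra, which fibroblasts express, were not called. The called number was 28 without the 2 doubted libraries and 17, 14 and 17 without control mouse 1, 2 or 3. Of 18 pericyte and smooth muscle genes 4 were called higher, Rgs5, Mcam, Notch3 and Pdgfrb (1.22, 1.37, 1.13 and 0.86), and Lmod1 was lower (-1.20). Of 24 endothelial genes 3 (12.5%) were higher and 2 (8.3%) lower, beside 12.5% and 6.51% of all genes tested. Pecam1 was at 61.2 to 102 CPM with a median of 84.1 in tumors and 79.2, 84.3 and 85.8 CPM in controls, not called.

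Macrophage genes were called higher in 12 of 26 and lower in 0, at a median of 1.58. Of these, Gpnmb, Cd68 and Ctss are also lysosome genes. C1qa was at 15.6 to 54.9 CPM with a median of 32.2 in tumors and 7.69, 9.81 and 10.3 CPM in controls, a change of 1.90 ± 0.43 (SE) on the log2 scale (adjusted p 0.0184, edgeR), Tyrobp had a log2 fold change of 1.96, Lyz2 of 2.54 and Trem2 of 6.18. Csf1r, a defining receptor of these cells, was at 38.2 to 128 CPM with a median of 60.8 against 86.3, 56.1 and 71.6 CPM and Adgre1 (F4/80) at 18.3 to 101 CPM with a median of 40.1 against 13.1, 18.5 and 18.4 CPM, and neither was called. The summed level of the 23 macrophage genes in no lysosome group was 386 to 1498 CPM in tumors, with a median of 575, and 432 to 492 CPM in controls, so that the sums overlapped. Relative to the control mean the median macrophage gene lay at 2.5 and 2.0 in mouse 1 and mouse 2 and at 0.38 to 1.45 in the other tumor mice, whereas Gpnmb was highest in mouse 3. The part of macrophages in the lysosomal differences was not tested. Without control mouse 1, 2 or 3 the called number was 4, 3 and 3, and 18 without the 2 doubted libraries. Mast cell and neutrophil genes were called higher in 9 of 13 and lower in 0. By limma-voom 4 were higher and 2 lower. Without control mouse 1, 2 or 3 this number was 2, 2 and 1. The mast cell protease genes Cpa3, Cma1 and Tpsb2 had log2 fold changes of 3.12, 3.24 and 4.20, and Cpa3 was at 2.68 to 16.9 CPM with a median of 3.54 against 0.717, 0.798 and 0.818 CPM. Of 32 lymphocyte and checkpoint genes edgeR called 0, at a median of 0.02, with 3 at an unadjusted p below 0.05 and 2 called by DESeq2. Between the groups 31 of the 32 overlapped, while 29.8% of all genes tested did not. Of 35 antigen presentation and interferon genes, 5 (14.3%) were called higher and 1 (2.9%) lower, beside 12.5% and 6.51% of all genes tested. The median of this group was 0.03. Those called higher included the class I genes H2-D1, H2-K1 and B2m (2.21, 1.43 and 1.13), and Gbp3 was lower (-1.56).

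Among receptor tyrosine kinases and their ligands, 8 of 37 were called higher and 1 lower. Ret (ENSMUSG00000030110.13, chromosome 6, 118151745 to 118197718), the receptor for GDNF family ligands that directs branching of the ureteric bud, was at 28.9, 45.6 and 159 CPM in the lowest, median and highest tumor mouse and at 0.749, 0.969 and 0.88 CPM in controls, a change of 6.30 ± 0.76 (SE) on the log2 scale (adjusted p 0.00101, edgeR). The ligand gene Gdnf and the co-receptor gene Gfra1 were at low levels, 0.00953 to 0.185 CPM and 0.0667 to 3.58 CPM, with controls at 0.117 to 0.188 CPM and 2.8 to 5.54 CPM, and were not called. Gfra1 is outside the groups described here and was picked once its values were known. The platelet-derived growth factors Pdgfa and Pdgfb, the receptor Axl and Igf1 were higher (1.78, 2.13, 1.73 and 1.96), and Erbb2 was lower (-1.07). In the TGF-beta group 7 of 25 were called higher, led after Gdf15 by Tgfb2 (3.91, 20.5 to 102 CPM with a median of 46.7 in tumors and 2.88, 4.63 and 3.02 CPM in controls) and also including Inhba (2.89), and Id1 was lower (-1.41). The Wnt feedback gene Axin2 was called higher (1.53) with 3 more of 23 in its group (17.4% in all, beside 12.5% of all genes tested). Notch3 and its target Heyl (1.42) were the 2 of 17 Notch genes called (11.8%). Called numbers in these groups fell to 3 for receptor kinases, 3 for TGF-beta and 1 for Wnt without control mouse 2.

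Some of the largest rises belonged to none of these groups. Ivl (ENSMUSG00000049128.7, chromosome 3, 92570902 to 92573735), involucrin of the cornified envelope of skin, was at 31.1, 239 and 385 CPM in the lowest, median and highest tumor mouse and at 0.0807, 0.0175 and 0.00826 CPM in controls, a change of 12.56 ± 1.46 (SE) on the log2 scale (adjusted p 0.00087, edgeR). The T-box factor Tbx1 was at 15.5 to 238 CPM with a median of 146 against 0.126, 0.166 and 0.182 CPM, a change of 9.76 ± 1.03 (SE) on the log2 scale (adjusted p 0.000568, edgeR). Hsd3b6, a steroid dehydrogenase, was split between mice, at 699 and 653 CPM in mouse 2 and mouse 6 and at 9.13 to 55.2 CPM in the others, against 0.811, 0.55 and 0.549 CPM. Clec18a (8.40), the matricellular gene Ccn3 (8.35) and AA467197 (8.29) followed. Slc6a13, a transporter of GABA and betaine, and Dmxl2, a regulator of the V-ATPase, were among the largest gains in CPM of the genes called. Dmxl2 was at 1288 to 2502 CPM with a median of 2107 in tumors and 324, 356 and 320.0 CPM in controls, a change of 2.58 ± 0.27 (SE) on the log2 scale (adjusted p 0.000481, edgeR), while its paralog Dmxl1 was among the largest losses of the genes called, at 525 to 870.2 CPM with a median of 706 against 1154, 1345 and 1364 CPM, a change of -0.86 ± 0.19 (SE) on the log2 scale (adjusted p 0.0167, edgeR). Tumors and controls separated for both genes, in opposite directions. Slc6a13 was at 498 to 2723 CPM with a median of 1715 against 105, 93.6 and 110.1 CPM.

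The largest falls among genes called with no overlap and an average log2 CPM of at least 5 included Pik3c2g, a lipid kinase (-3.19), Slc25a25, a mitochondrial ATP-Mg carrier (-2.66), Rhobtb1 (-2.35), the coagulation factor gene F5 (-2.29), the reductase Akr1c19 (-2.07), the clock gene Per2 (-2.02) and Prodh, proline dehydrogenase (-2.0). Per2 was at 7.96 to 35.1 CPM with a median of 19.2 in tumors and 62.3, 109 and 84.9 CPM in controls, with no overlap. Among genes called, the 8 largest losses in mean CPM were those of Wnk1, Ndrg1, Dmxl1 and the 2 mitochondrial ribosomal RNAs, given before, and of Nox4, the renal NADPH oxidase, at 243 to 978 CPM with a median of 547 against 1537, 1706 and 1429 CPM, the calcium channel Itpr1, at 397 to 798 CPM with a median of 563 against 1070.2, 1430.3 and 1303 CPM, and the kinase Lrrk2, at 174 to 661 CPM with a median of 292 against 922, 908 and 905 CPM. Their log2 fold changes were -1.48, -1.09 and -1.37.

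Transcripts of other tissues were high in some of the tumor mice. Of 16 brain and nerve genes 4 were called higher, Tubb3, Map2, Pmp22 and Mbp (3.40, 1.93, 1.42 and 1.33), while the defining genes Gfap, Snap25 and Rbfox3 were not called and were highest in mouse 4, at 16.8, 6.94 and 9.85 CPM. The adipocyte hormone gene Adipoq was at 151 and 32 CPM in mouse 2 and mouse 1 and at 0.0605 to 0.606 CPM in the other tumors, against 2.67, 1.32 and 3.7 CPM. Skeletal muscle actin, Acta1, was at 41.7 and 35.5 CPM in mouse 4 and mouse 2 and at most 9.25 CPM elsewhere. Of 9 adipocyte and 8 blood genes edgeR called 0, with 0 at an unadjusted p below 0.05 in either and 1 and 0 called by DESeq2. Of 12 skeletal muscle genes 1 (Pvalb) was called by edgeR, at a median of 3.15, with 7 at an unadjusted p below 0.05 and 9 called by DESeq2, all 9 higher. Relative to the control mean the median muscle gene lay at 3.45, 2.99 and 1.51 in mouse 4, mouse 2 and mouse 5, and the median adipocyte gene at 4.11 and 1.62 in mouse 2 and mouse 1. Of 9 genes of the adrenal cortex and liver Hsd3b1 was higher (2.68) and Apoa2 lower (-1.57). The part of such tissue in other results was not tested. Kidney genes that differ between the sexes gave 0 of 27 higher and 1, Abcc3 (-1.87), lower, at a median of -0.68. By limma-voom 12 were lower (median -3.16), and with sex as a covariate 1 was lower (median -2.37). The male-biased proximal tubule transporter Slc7a13 was at 755 and 21.6 CPM in the male mice 5 and 1 and at 0.368 to 1.47 CPM in the female tumor mice, against 4.01, 2.74 and 2.19 CPM in the female controls, and its log2 fold change of 5.45 (SE 2.94) was not called. Among female mice Xist was at 8.23 to 17.7 CPM in tumors and 35, 65.4 and 57.3 CPM in controls, and no female tumor overlapped the controls. Genes on the X chromosome had a median log2 fold change of 0.252 (899 genes), against 0.038 for all other genes, and 0.306 against 0.040 among female mice only.

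**Figure D5:**
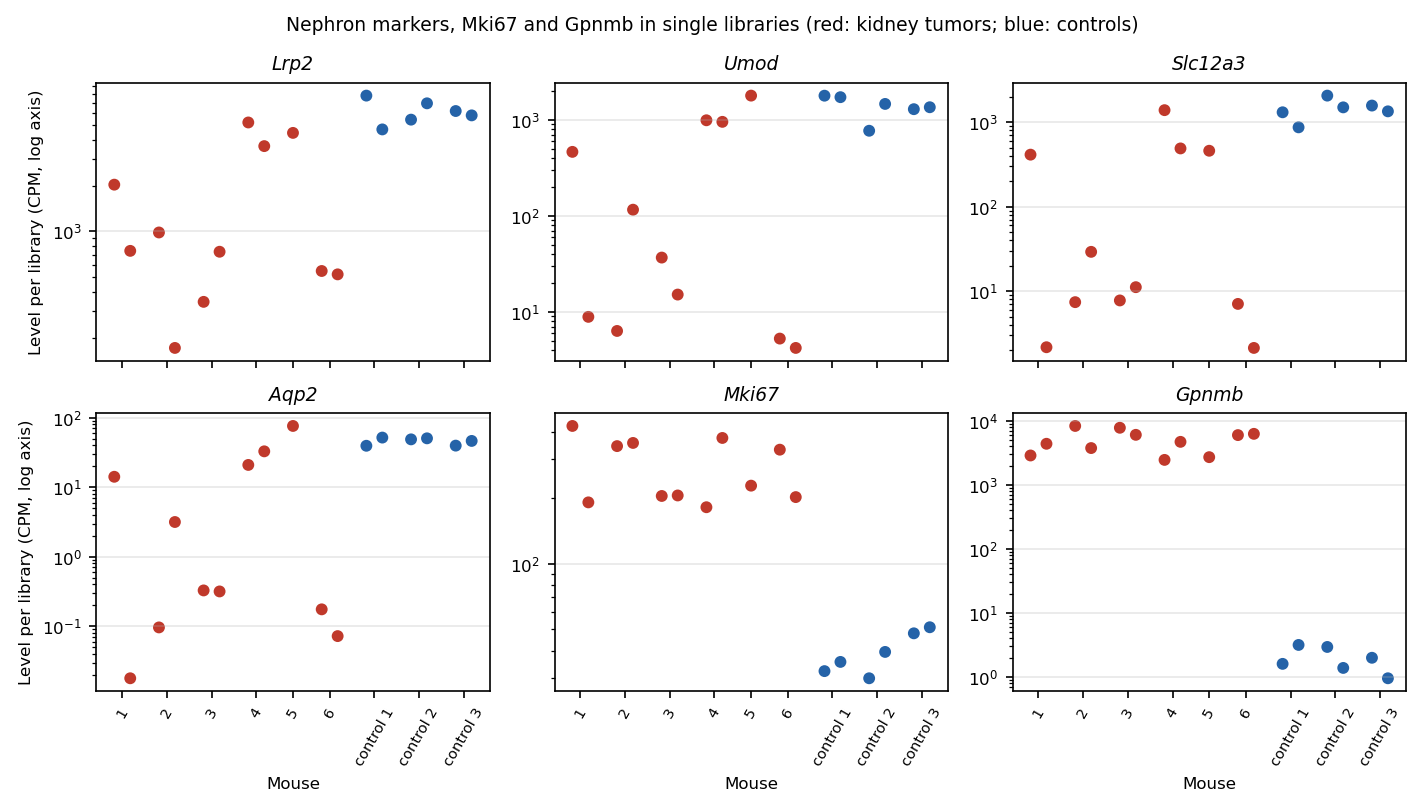
Level of Lrp2, Umod, Slc12a3, Aqp2, Mki67 and Gpnmb in each of the 17 libraries, as CPM on a log axis, with tumor libraries in red grouped by mouse 1 to mouse 6 and control libraries in blue by control mouse 1 to 3. The 2 libraries of mouse 1 differ for Umod (462 and 8.88 CPM), while Mki67 and Gpnmb of every tumor library lie above every control library.

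Beyond the nephron groups, several counts moved with the method. With sex as a covariate, and among female mice only, 20 glycolytic genes were called higher and 14 peroxisomal genes lower. Of the NRF2 group 14 and 16 were then higher and 4 and 6 lower, of the ATF4 group 13 and 14 were higher and 1 was lower, and of the receptor kinases and ligands 8 were higher and 8 and 5 lower. Among female mice 8 nuclear-encoded oxidative phosphorylation genes were called higher. By DESeq2 and by limma-voom 19 macrophage genes were called higher. By limma-voom 23 peroxisomal genes, 18 renal lineage factors, 12 receptor kinases and ligands, 12 fatty acid oxidation genes, 11 gluconeogenic genes, 11 junction and mesenchymal genes, 10 NAD genes, 7 autophagy genes, 7 Wnt genes, 6 TGF-beta genes, 5 V-ATPase genes and 3 Notch genes were called lower. The same fit called 12 V-ATPase, 10 autophagy, 9 receptor kinase and ligand, 7 TGF-beta, 6 junction and mesenchymal and 4 Wnt genes higher. It called 2 renal lineage factors, 2 NAD genes, 2 Notch genes and 1 gluconeogenic gene higher, but 0 peroxisomal and 0 fatty acid oxidation genes.

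By annotated gene type, 15.4% of 16730 protein-coding genes were called higher and 6.3% lower. Genes annotated as sense intronic (28.6% of 126 called lower, median -1.475) and of the class TEC, which awaits experimental evidence, (25% of 933 called lower, median -1.294) were lower in tumors more often, and 22.2% of 221 miRNA genes were called higher. Reads from the introns of the surrounding genes cannot be told apart from reads of such short single-exon genes.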

How the data were processed

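Total RNA was sequenced from formalin-fixed kidney tumors and control kidneys of mice, and the authors deposited raw counts per gene for all libraries of the Sglt2-Cre model in 1 table, with Ensembl gene identifiers. Submitters' processing notes name FastQC, MultiQC, Bowtie2 and STAR 2.5.2a and the builds GRCm38 and mm10. The counter and the annotation release are not given in the sources used here. Of the counts from 1 to 20, even numbers made up 79.5% to 84.3% in a library, so that both reads of a pair seem to be counted, and counts therefore overstate the number of fragments. Identifiers were matched to the GENCODE annotation of GRCm38 given as a reference (53274 of 53379 genes), from which coordinates are taken.

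Counts of the libraries of 1 mouse were summed, genes with low counts were removed by edgeR's default filter, and 6 tumor mice were compared to 3 control mice by the quasi-likelihood F test of edgeR 4.0.16 (R 4.3.3) with TMM normalization. Genes were called at a Benjamini-Hochberg adjusted p below 0.05 over 23578 genes. CPM are counts scaled by the library size after TMM correction, fold changes are log2 of tumors over controls, and their SE was derived from the fold change and its F statistic. Totals of 95205356 to 120153158 counts per library cover counting error well, and the spread between mice sets the precision. Sex was read from Y-linked transcripts. The analysis was tested on simulated data. A gene that was not called is not thereby shown to be unchanged. DESeq2 1.42.0, limma 3.58.1, other filters, scalings, units and sample sets were tried as alternatives.

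Members of the gene groups and the groups themselves were chosen with earlier results of these data known. Genes outside the groups were named when they were among the 12 largest rises or falls of genes called with no overlap and an average log2 CPM of at least 5, or among the 8 largest gains or losses in mean CPM. Promoter windows were taken from RefSeq (GRCm38.p6). Some genes that meet these rules are not reported here. The Pax8-Cre table was not used.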

Additional observations from a re-analysis of the deposited data

Results flagged for a closer look

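Of the gene levels given here, 12 had 1 tumor mouse far from the other 5 by Dixon's test, and 7 of these were in mouse 4. A rate of 1 in 20 would give about 12.1. The test was run on CPM without logs and on genes that are not independent, so this rate does not tell what chance alone would give. In mouse 4, Gfap was at 16.8 CPM, Rbfox3 at 9.85 CPM and Snap25 at 6.94 CPM, all 3 of them brain genes, and the next highest tumor mice were at 0.129, 0.82 and 2.59 CPM. Mouse 4 was also the highest for Nmrk2 (98.5 CPM, next 29.2), Slc7a7 (100.7 CPM, next 41.8), Ppara (36.7 CPM, next 21) and Lhx1 (9.67 CPM, next 4.70). In mouse 5, Slc7a13, a transporter that male kidneys express more, was at 755 CPM (next 21.6) and Aqp2 at 75.9 CPM (next 26.1). In mouse 6, the melanin enzyme gene Tyrp1 was at 22.8 CPM (next 2.68) and the mast cell tryptase gene Tpsb2 at 6.24 CPM (next 2.10). In mouse 2, the adipocyte gene Adipoq was at 151 CPM (next 32.0).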

How the results depend on the processing

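No paired analysis was possible because tumors and controls came from different mice. Of the 216 genes named here that were called, 0 changed sign in any of 25 alternatives and 90 passed the threshold in all of them. Numbers of calls moved more. In place of 4474 genes called (2940 higher and 1534 lower), DESeq2 called 7176 (2808 lower), 9405 were called with each library as its own sample (5433 and 3972), 2021 with 1 library per mouse (1595 and 426), 7446 by limma-voom with mouse as a random block (3859 lower), 1857 when the null hypothesis was a change of up to 1.5-fold (1606 and 251), and 6982 without the mouse 5 library and the first library of mouse 4 (2921 lower), the last chosen after seeing the data. With sex as a covariate 2344 were lower. With 1 mouse left out, 1163 to 5856 were called, 1049 to 3695 higher and 114 to 2161 lower, with the lowest numbers without control mouse 2 and the highest without mouse 5. The share of calls that were higher was 65.7%, 48.2% by limma-voom, 57.1% with offsets for GC content and length, and 78.9% with 1 library per mouse. With CACGTG in place of TCACGTGA the share of tested promoters rose from 1.79% to 10.6%. That of lysosome genes called higher rose from 15.0% to 37.5%, and that of lysosome genes not called from 8.33% to 18.3%.

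Only genes that were not called changed sign. Slc7a13 was at -1.99 with sex as a covariate and -1.96 among females on the log2 scale. Pecam1, near 0 in the main comparison, was at 0.01 with 1 library per mouse and without control mouse 3, and at 0.04 without mouse 1 or mouse 3. Csf1r was at 0.00 with upper quartile factors, 0.17 with 1 library per mouse, 0.03 without the 2 doubted libraries, 0.07 without mouse 3, 0.11 without mouse 4 or mouse 6 and 0.14 without control mouse 1. The cause of these shifts was not tested. Over the comparisons that left out 1 mouse, Pecam1 lay between -0.08 and 0.04 and Csf1r between -0.25 and 0.14.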
